A study of Mus musculus with 18 samples.

Results

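The respiratory chain genes described here are those whose symbol begins with Nduf, Uqcr, Sdh or Atp5, or with Cox followed by 4, 5, 6, 7 or 8, in a probe set that the platform annotation ties to a single symbol. That rule took 100 of the 12488 probe sets of the array, for 73 genes, and used no measured value. They comprised 31 genes of complex I, 6 of complex II, 7 of complex III, 15 of complex IV and 14 of complex V, 4 of which (Ndufaf1, Ndufaf4, Sdhaf1 and Sdhaf2) encode assembly factors. Another 10 probe sets that share a member's symbol with other symbols were left out. After a filter on dim genes, 68 members were tested among 5744 genes, each through its brightest probe set. The members not tested were Atp5j2, Cox5a, Cox8a, Ndufa12 and Ndufc2, whose mean signals ran from 31.6 to 66.3 against a filter at 118.6.

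The respiratory chain sits in the inner mitochondrial membrane. Complexes I and II take electrons from NADH and succinate, complex III passes them to cytochrome c, complex IV hands them to oxygen, and complex V uses the resulting proton gradient to make ATP. Tubule cells of the kidney depend on it for the energy of solute transport, and the proximal tubule and thick ascending limb are rich in mitochondria. The members are nuclear genes, and the subunits that mitochondrial DNA encodes are not among them.

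Kidney RNA of C57 mice was hybridised, 1 array for each mouse. The groups were 6 control and 6 Aprt KO mice at 7 days of age and 3 control and 3 Aprt KO mice at 1 month. The labels name a littermate of the same sex for each mouse, which makes 9 pairs. Aprt encodes adenine phosphoribosyltransferase, which salvages adenine, and mice without it form crystals of an adenine oxidation product in the kidney. The series text gives the genotypes as Aprt-/- and Aprt+/+ and calls the ages newborn and adult, while the labels give 7 days and 1 month, which are used here. The Aprt signal itself lay on the other genotype's side of the midpoint on 4 of the 18 arrays (controls 1 and 2 and Aprt KO 4 at 7 days, Aprt KO 1 at 1 month). Those arrays read 66.3, 51.3, 135.4 and 86.5, while the other controls read 103.9 to 148.2 and the other Aprt KO arrays 41.9 to 58.1. Groups are therefore named as labelled throughout, and every direction between genotypes rests on those labels. Myeloid markers ran with the labels without overlap, their summed signal being 3949 to 6488 in controls and 8369 to 12107 in Aprt KO at 7 days, and 3483 to 4534 and 4614 to 5771 at 1 month.

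Both arrays of 7-day pair 4 stood apart. Their highest signals were 10167 and 10767, against 25718 to 51453 on the other 16 arrays. Among probe sets with signals of 5000 to 10000 on the other 5 arrays of the same group, pair 4 read a median of 86.2% of them in the control and 82.1% in the Aprt KO array, and above 10000 it read 58.5% and 53.8%. Many members are that bright, so the main counts of calls and medians of the members that rest on 7-day arrays are also given without that pair, and single genes where a call was lost. Other counts from 7-day arrays, such as those of groups without overlap, and the values of other gene lists are given with that pair only. Members were low on these arrays at lower signals as well: from 1000 to 2500, where all probe sets together read 100% and 97.1%, the member probe sets read 80.3% and 82.2%. Many skeletal muscle genes were also high there, with Acta1, the actin of skeletal muscle fibres, at 1662 and 1842 against 8.96 to 133 on the other 7-day arrays. Myl1, Mylpf, Tnnt3, Tnni2, Tnnc2, Atp2a1 and Myh1 also read above the other 7-day arrays. Ckm and Myh4 lay within the range of those arrays, and Actn3 and Pvalb were not above it on both. The part of muscle genes in the results was not tested.

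Promoter windows are shown for every member with one among the 5 largest called rises with age in each genotype (Sdha, Ndufa13, Ndufb3 and Ndufa5) and for Sdhb, which gave the smallest blocked p between genotypes; Cox6a2, Sdhc and Ndufb9 had no window. Of the 73 member genes, 60 had a window in RefSeq's promoter table for GRCm38.p6, running from 250 bases before to 50 bases after a gene's start. The windows were searched on both strands for the letters bound by factors known for nuclear genes of mitochondria: an NRF1 string with a free base, CCGGAAG (the ETS family, which holds GABP), AAGGTCA (the estrogen-related receptors), AAGATGGC (YY1), GGGCGG (Sp1 family) and TGACGTCA (CREB). In the NRF1 string the base after its first A could be any letter, so its matches need not be palindromes. No string holds another, though matches can overlap. In the windows below, matches are in capitals and each sequence runs in the direction of transcription. Sdha lies on the minus strand at chr13:74350191-74350490 and has 3 NRF1 matches beginning 98, 55 and 10 bases before the start. Ndufa5, on the minus strand at chr6:24527641-24527940, has an NRF1 match 26 bases before the start and an Sp1 match from base 4 after it, and RefSeq lists another, overlapping window. Ndufa13, on the minus strand at chr8:69901971-69902270, has 3 Sp1 matches, and Ndufb3, on the plus strand at chr1:58586147-58586446, has none of the searched strings. Sdhb, on the plus strand at chr4:140961021-140961320, has 3 Sp1 matches and an ETS match from base 7 after the start.
Sdha: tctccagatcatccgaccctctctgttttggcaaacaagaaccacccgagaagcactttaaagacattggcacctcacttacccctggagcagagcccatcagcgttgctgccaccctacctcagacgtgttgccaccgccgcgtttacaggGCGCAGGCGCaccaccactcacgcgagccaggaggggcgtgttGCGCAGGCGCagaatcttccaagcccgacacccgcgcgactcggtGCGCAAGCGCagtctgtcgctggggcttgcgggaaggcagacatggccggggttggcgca
Ndufa5: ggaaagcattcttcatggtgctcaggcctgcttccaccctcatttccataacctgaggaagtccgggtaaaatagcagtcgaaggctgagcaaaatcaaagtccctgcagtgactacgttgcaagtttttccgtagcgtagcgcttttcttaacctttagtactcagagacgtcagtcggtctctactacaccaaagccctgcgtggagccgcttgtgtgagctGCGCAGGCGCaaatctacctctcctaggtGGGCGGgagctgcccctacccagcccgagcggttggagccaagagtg
Ndufa13: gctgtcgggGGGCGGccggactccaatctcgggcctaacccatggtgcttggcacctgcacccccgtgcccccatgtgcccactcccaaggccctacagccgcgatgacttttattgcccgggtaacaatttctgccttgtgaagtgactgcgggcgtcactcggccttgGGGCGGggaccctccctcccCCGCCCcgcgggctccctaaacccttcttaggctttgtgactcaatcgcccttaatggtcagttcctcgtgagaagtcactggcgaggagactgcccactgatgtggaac
Ndufb3: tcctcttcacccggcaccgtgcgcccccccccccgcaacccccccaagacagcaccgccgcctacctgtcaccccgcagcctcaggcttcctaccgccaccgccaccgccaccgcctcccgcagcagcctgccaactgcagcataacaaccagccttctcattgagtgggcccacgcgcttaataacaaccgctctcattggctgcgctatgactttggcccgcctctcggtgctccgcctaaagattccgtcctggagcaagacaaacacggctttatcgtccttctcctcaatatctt
Sdhb: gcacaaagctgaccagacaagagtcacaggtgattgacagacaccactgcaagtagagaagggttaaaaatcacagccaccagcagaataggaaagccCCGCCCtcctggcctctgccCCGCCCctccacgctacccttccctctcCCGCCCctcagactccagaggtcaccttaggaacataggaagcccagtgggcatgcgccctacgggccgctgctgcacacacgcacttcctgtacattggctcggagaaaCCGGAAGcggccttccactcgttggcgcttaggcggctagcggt

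NRF1 letters occurred in the windows of 12 of the 60 members (20%), against 12% of the 4646 tested genes with a window and 5.19% of all 27025 genes. ETS letters occurred in 18 members (30%), against 20.3% and 9.93%. YY1 letters occurred in 8 members (13.3%), against 5.42% and 3.19%, and those of the estrogen-related receptors in 5 (8.33%), against 4.33% and 5.38%. Sp1 letters were found in 30 members (50%), a lower share than the 69.4% of tested genes and a higher one than the 38.2% of all genes. CREB letters were found in 2 members (3.33%), against 3.27% of tested genes and 2.03% of all genes. These counts describe letters in a window and were not tested.

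From 7 days to 1 month in control kidneys, 32 of the 68 members rose and none fell (limma, Benjamini-Hochberg adjusted p under 0.05). That is 47.1% against the 14.8% of all tested genes that rose (26.1% fell). At an unadjusted limma p under 0.05, 42 of the 68 passed in either direction, against 2760 of all 5744 genes. The median log2 fold change of the members was 0.39, while that of all genes was -0.11, so the members moved upward against a slight downward shift of the whole array. In mice labelled Aprt KO, 45 of the 68 rose and none fell, 66.2% against 15% of all genes (25.3% fell), with a median of 0.50 against -0.12. The calls of 31 genes were shared by the genotypes, 14 were called only in Aprt KO and 1, the assembly factor Ndufaf1, only in controls. These counts do not show that the genotypes differ: in the test of that difference, the interaction of genotype and age, 0 members were called (limma, background 0.4%). At an unadjusted limma p under 0.05, 2 members passed, against 307 of all 5744 genes. With the litter as a random effect 1 member was called in the interaction, Cox6b2. In 19 members every 1-month control read above every 7-day control (27.9%, against 11.2% of all genes), and in 29 members this held for Aprt KO (42.6%, against 13.4%). Both held for 16 members.

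The count of members called changed with the arrays left out. With 7-day pair 4 left out it was 28 in controls (14.2% of all genes) and 42 in Aprt KO (14.9%), with medians of 0.35 and 0.46; Atp5d, Ndufaf1, Sdhd and Uqcrh were lost in controls and Atp5j, Atp5k and Ndufa13 in Aprt KO. Leaving out the 1-month control of pair 1 left 7 calls in controls, and leaving out the Aprt KO mouse of that pair left 21 in Aprt KO. Without the 1-month control of pair 3 it was 16, and without the Aprt KO mouse of pair 3 it was 25, of which 24 rose and 1 fell. Pair 1 holds the female mice of that age. The sex term sets the level of each group midway between the sexes. A female therefore weighed more than a male of that age in the age changes. Array 3 of the 1-month Aprt KO mice also had the highest Acta1 signal, 3978, against 2.18 to 12.0 in the 1-month controls. Quantile normalization gave 20 and 35 calls, with 0 falls, and centring each array on its median gave 45 and 54, with member medians of 0.55 and 0.65. Without the 4 arrays whose Aprt signal crossed the midpoint the counts were 26 and 17. Apart from the fit without pair 4, these counts are given without the share of all genes called. They therefore do not separate a loss among the members from a loss over all genes. The members called in every fit that left out 1 array, in controls and in Aprt KO, were Ndufa3, Ndufs1, Sdha, Sdhb and Sdhc. Cox6a2 was too, but it passed the filter only through its 1-month arrays, so its call was favoured by the filter. Age and any array batch cannot be told apart, since the labels give no scan or labelling date and the names of all 1-month mice carry a prefix of their own.

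**Figure D1:**
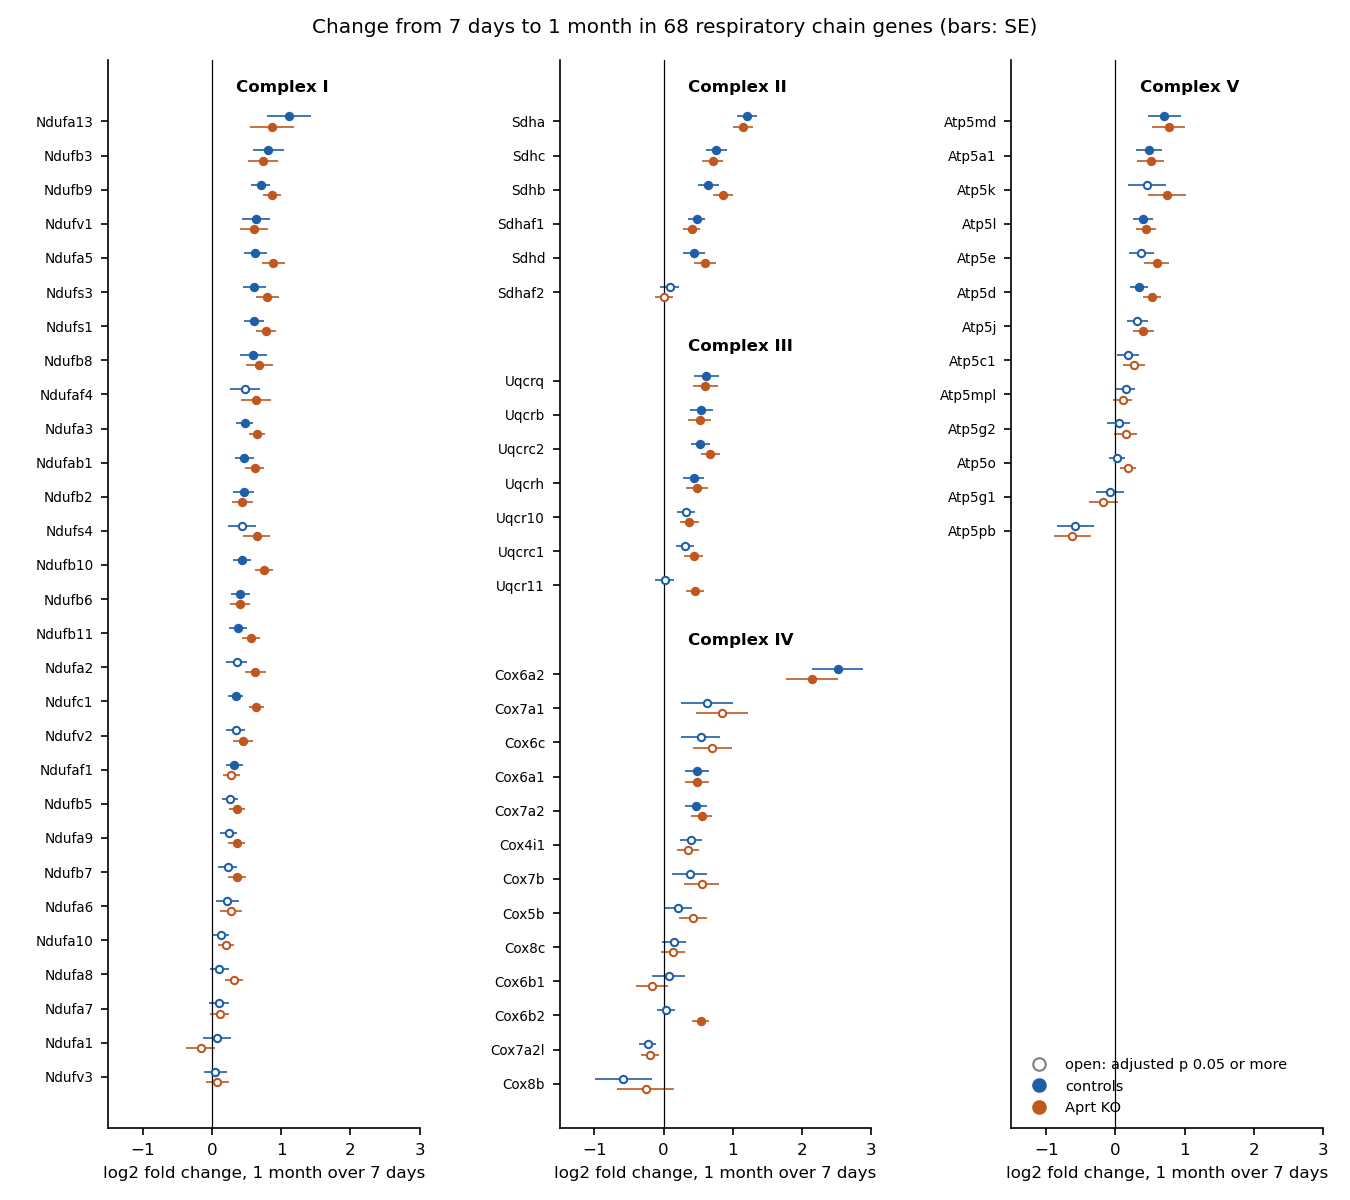
Log2 fold change from 7 days to 1 month with its standard error for each of the 68 tested genes, by complex, in controls (blue) and Aprt KO (orange). Filled points passed an adjusted p of 0.05 in limma, 32 in controls and 45 in Aprt KO, all of them to the right of 0, and Cox6a2 lies farthest right.

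Complex II, succinate dehydrogenase, which is also an enzyme of the citric acid cycle, had the highest median change of the 5 complexes in each genotype, though that of complex I was close in Aprt KO. In controls 5 of its 6 genes rose with a median log2 fold change of 0.56, and in Aprt KO 5 of 6 rose with a median of 0.65; without pair 4 these were 4 (0.53) and 5 (0.62). Sdha, the flavoprotein that oxidises succinate, read 528 to 728 (median 602) in the 7-day controls and 1248, 1354 and 1946 at 1 month. In Aprt KO it read 491 to 597 (median 560.3) at 7 days and 1156, 1119.9 and 1711 at 1 month. Every 1-month array was above every 7-day array of either genotype, and the Sdha change was 1.20 (SE 0.14) in controls and 1.14 (SE 0.14) in Aprt KO on the log2 scale, with limma adjusted p of 2.74e-06 and 5.14e-06. Sdhb, the iron-sulfur subunit, read 4157 to 6149 (median 5639) in 7-day controls and 9293, 7394 and 8211 at 1 month, again without overlap. Its 7-day Aprt KO arrays read 3260.2 to 4995 and its 1-month ones 8918, 6632 and 8397, a change of 0.86 (SE 0.15). Sdhc, a membrane anchor, changed by 0.76 (SE 0.15) and 0.71 (SE 0.15), and Sdhd, the other anchor, by 0.44 and 0.60. The assembly factor Sdhaf1 rose (0.48 in controls), while Sdhaf2 measured 0.09 and 0.01 and was not called.

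Complex I, NADH dehydrogenase, the largest of the 5, had 16 of 29 genes rising in controls (median 0.41) and 22 of 29 in Aprt KO (median 0.61), and without pair 4 it had 15 (0.37) and 21 (0.54). The subunits of the NADH-binding and quinone-binding modules numbered 11, of which 4 rose in controls and 8 in Aprt KO, and of the 16 other subunits 11 and 13 rose. Ndufb9, a membrane-arm subunit, read 2839 to 3990.1 (median 3295) in 7-day controls and 5843, 5194 and 5550.1 at 1 month, with no overlap. The change was 0.70 (SE 0.13) in controls and 0.87 (SE 0.13) in Aprt KO. Ndufs1, the largest subunit of the NADH-binding arm, read 2278 to 2869 (median 2619) at 7 days and 3921, 3520.0 and 4774 at 1 month in controls, a change of 0.61 (SE 0.14), and 0.78 (SE 0.14) in Aprt KO. Ndufa5, of the quinone-binding arm, changed by 0.62 (SE 0.17) in controls, where the 1-month array of pair 2, at 4537, lay within the 7-day range of 3292 to 5231. In Aprt KO its 1-month arrays, at 6399, 5264 and 7517, all lay above the 7-day ones, which reached 4341, and the change was 0.88 (SE 0.17).

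The largest complex I change in controls, that of Ndufa13, an accessory subunit also known as GRIM-19, was among the least even. The 1-month controls read 2976, 2801 and 5813 against 1177 to 2879.6 (median 1393) at 7 days, so the groups overlapped and pair 3 carried much of the mean. Its change was 1.11 (SE 0.32, limma adjusted p 0.00923) in controls and 0.86 (SE 0.32, adjusted p 0.0373) in Aprt KO, and without pair 4 the latter had an adjusted p of 0.0808. Ndufb3 behaved alike, with 3467, 2561 and 5100.2 at 1 month against 1538 to 3083 at 7 days in controls. The brightest members of the complex, Ndufb5 and Ndufv1, both overlapped between ages in controls. Ndufb5, a membrane-arm subunit, read 9653 to 11664 (median 10069.7) in 7-day controls and 14603, 10139 and 11234 at 1 month, a change of 0.26 (SE 0.12, adjusted p 0.091). Ndufv1, which carries the NADH site, read 4839 to 9737 (median 7406) and then 13317, 10110.3 and 9106, a change of 0.63 (SE 0.20). Ndufv3, Ndufa7, Ndufa8, Ndufa10, Ndufa6 and Ndufa1 were not called at either genotype, with log2 fold changes of -0.16 to 0.32. For Ndufv2, which binds an iron-sulfur cluster, the brighter probe set rose in Aprt KO (0.45) and the dimmer one measured -0.08, so that call rests on 1 of the 2 probe sets.

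Complex III, cytochrome bc1, rose in 4 of 7 genes in controls (median 0.43) and in 7 of 7 in Aprt KO (median 0.49), and without pair 4 in 3 (0.42) and 7 (0.47). Uqcrq, the brightest, read 5625 to 9470.3 (median 8976) in 7-day controls and 14737, 10537 and 12318 at 1 month. All 1-month values lay above the 7-day range, and the lowest 7-day value was that of pair 4. The change was 0.62 (SE 0.18) in controls and 0.60 (SE 0.18) in Aprt KO. Uqcrc1, a core subunit, read 4758 to 7057 (median 6586) and then 8036, 8480.4 and 6839, with overlap and a change of 0.31 (SE 0.14, limma adjusted p 0.0805) in controls. Uqcr11, a small accessory subunit, had a change of 0.01 (SE 0.13) in controls, where the 1-month arrays read 4662, 2609 and 3786, and 0.45 (SE 0.13) in Aprt KO. The difference between those changes was 0.44 with a limma adjusted p of 0.745.

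Complex V, the ATP synthase, rose in 4 of 13 genes in controls (median 0.32) and in 7 of 13 in Aprt KO (median 0.41), and without pair 4 in 3 (0.27) and 5 (0.33). Atp5a1, the alpha subunit of the catalytic head, read 6132 to 12518 (median 10453) in 7-day controls and 14231, 11589 and 15650.1 at 1 month. The 1-month array of pair 2 lay inside the 7-day range, and the change was 0.49 (SE 0.19, limma adjusted p 0.047). Atp5md, a small subunit of the membrane part, read 5185 to 9638 (median 9028) and then 18936, 9181 and 11080.0, a change of 0.71 (SE 0.24) that pair 1 carried most. The members that encode the c-ring were Atp5g1 and Atp5g2. Atp5g1, dim at a mean signal of 145, changed by -0.08 and -0.17 and Atp5g2 by 0.05 and 0.15, none of them called. Atp5pb, a stalk subunit that was also dim, at a mean signal of 173, measured -0.58 in controls and -0.62 in Aprt KO (limma adjusted p 0.091 and 0.0711). These were the lowest changes of the complex.

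Complex IV, cytochrome c oxidase, rose in 3 of 13 in controls (median 0.38) and 4 of 13 in Aprt KO (median 0.49), with 3 (0.32) and 4 (0.37) without pair 4, and held the tissue-restricted isoforms. Cox6a2, whose call the filter favoured, is among these calls in each genotype. Of all tested genes 14.8% rose in controls and 15% in Aprt KO. Cox6a1, the widely expressed form of subunit 6a, was the brightest member of all. It read 8476 to 13414 (median 12234) in 7-day controls and 19643, 12248 and 15912 at 1 month, a change of 0.49 (SE 0.17) in each genotype, with the 1-month control of pair 2 inside the 7-day range. Cox7a2, the widely expressed form of subunit 7a, changed by 0.47 (SE 0.16) and 0.55 (SE 0.16). The other ubiquitous subunits Cox5b, Cox6c, Cox7b and Cox4i1 measured 0.21 to 0.53 in controls and 0.35 to 0.70 in Aprt KO without passing the test.

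Cox6a2, the form of subunit 6a found in heart and skeletal muscle, gave the largest change of all members. It read 35.5 to 133 (median 48.3) in 7-day controls, 37.8 to 171 (median 44.9) in 7-day Aprt KO, 467, 372 and 489 in 1-month controls and 412, 356 and 467 in 1-month Aprt KO. No 1-month array reached down to the 7-day arrays. The change was 2.51 (SE 0.37) in controls and 2.15 (SE 0.37) in Aprt KO, with limma adjusted p of 3.09e-05 and 0.000153. It alone among the tested members had both 7-day means, 58.6 and 84, under the filter, so it entered the test through its 1-month arrays and so had to differ. In the 1-month controls Acta1 read 9.50, 12.0 and 2.18, and the muscle genes Ckm and Myh4 read 104, 117 and 90.3 and 153, 203 and 63.3. The part of muscle in the Cox6a2 values was not tested. Without Cox6a2, 31 members rose in controls and 44 in Aprt KO.

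Cox7a1, the heart and skeletal muscle form of subunit 7a, read 143 to 457 (median 228) in 7-day controls and 454, 269 and 497 at 1 month, with overlap and a change of 0.63 (SE 0.37, limma adjusted p 0.194). Cox8b, a form known from heart, muscle and brown fat, ran the other way without passing the test (-0.58, SE 0.41). It was uneven among mice of a group: the 7-day Aprt KO mice read 381, 1081, 402, 364, 1156 and 1056 in pairs 1 to 6. The arrays of pairs 2, 5 and 6 were high, and those were also the 7-day Aprt KO arrays with the highest Ucp1, the uncoupling protein of brown fat (2346, 1622 and 1862, against 439 to 817 in the others). In the 7-day controls pair 6 was highest for both, with Cox8b at 1189 and Ucp1 at 1883. The part of fat in these values was not tested. Of the 12 tested genes of the muscle and brown fat list, 0 were called with age in controls. In Aprt KO 2 (Pvalb and Atp2a1) rose. The 22 on the array summed to 5978 to 8144 in 7-day controls and 4069 to 7878 in 7-day Aprt KO. At 1 month they summed to 5501 to 7604 in controls and 7626 to 20052 in Aprt KO. Pvalb is also on the list of thick limb and distal tubule markers. It read 1290 to 6051 over all arrays, so these sums do not stand for muscle and fat alone.

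**Figure D2:**
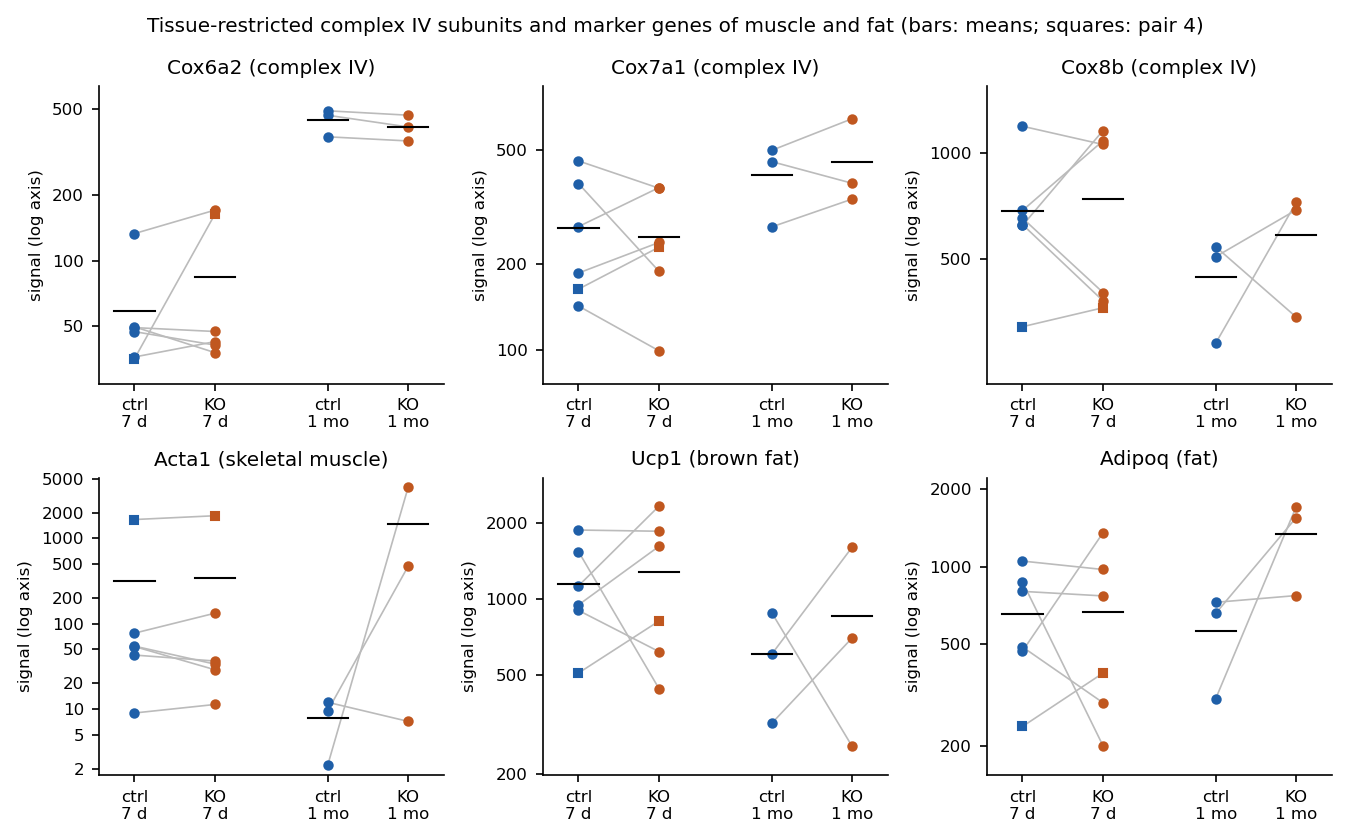
Signal on each array, on log axes, for Cox6a2, Cox7a1 and Cox8b above and for the muscle gene Acta1 and the fat genes Ucp1 and Adipoq below; bars are group means, lines join littermates and squares mark pair 4. Cox6a2 is separated by age in both genotypes, while Cox7a1 and Cox8b overlap between ages and Acta1 is high in pair 4 and in 2 of the 1-month Aprt KO mice.

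Cox6b2, known as a testis form of subunit 6b, was tested through its brightest probe set. The suffix of that probe set marks possible matches to related transcripts, so the gene is named only as annotated. It read 832 to 976 (median 936) in 7-day controls, 729 to 1032 in 7-day Aprt KO, 999.8, 812 and 1005 in 1-month controls and 1315, 1105 and 1486 in 1-month Aprt KO. On that probe set the 1-month Aprt KO arrays lay above the other 15, and the change with age was 0.04 in controls and 0.53 (SE 0.13, limma adjusted p 0.00272) in Aprt KO. A dimmer probe set past the filter read 1429, 1046 and 1427 in the 1-month Aprt KO arrays. There they overlapped the controls, which reached 1137 at 7 days and 1083 at 1 month. Cox6b1, the widely expressed partner, was dim at 124 to 310.4 and moved by 0.07 and -0.16. Cox8c, another testis form, measured 0.15 and 0.13, and Cox7a2l, a factor of supercomplex assembly, -0.23 and -0.20. None of these 3 passed the test. Of the 68 members, 19 rest on probe sets with such suffixes; among the other 49, 22 rose in controls and 32 in Aprt KO and none fell.

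**Figure D3:**
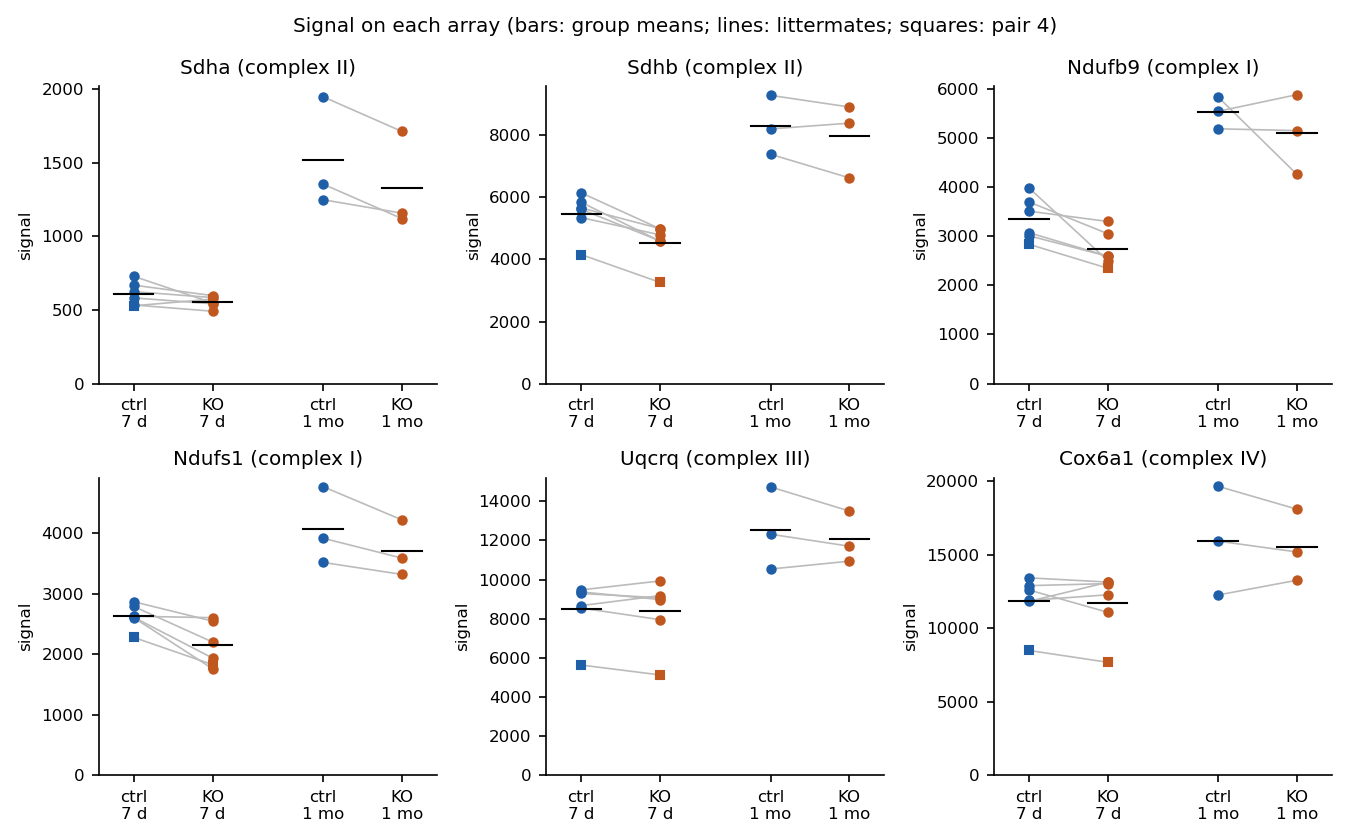
Signal on each array for the complex II genes Sdha and Sdhb, the complex I genes Ndufb9 and Ndufs1, Uqcrq of complex III and Cox6a1 of complex IV; bars are group means, lines join littermates, squares mark pair 4 and each axis starts at 0. Sdha, Sdhb, Ndufb9, Ndufs1 and Uqcrq separate the ages without overlap, while Cox6a1 overlaps in controls. Sdhb falls from control to Aprt KO within each 7-day pair.

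Around the chain, the genes of the citric acid cycle and pyruvate dehydrogenase rose in 11 of 15 tested in controls and 12 of 15 in Aprt KO, none falling, with medians of 0.54 and 0.61. They included Idh2, Ogdh, Fh1, Mdh2 and Pdha1. The electron carriers outside the symbol rule rose in 7 of 9 in controls and 6 of 9 in Aprt KO, among them Cyc1, cytochrome c1 of complex III, and Cycs, cytochrome c. Mitochondrial import and ribosomal genes rose in 6 of 28 and 8 of 28 (medians 0.18 and 0.27), and Mrpl23 fell in controls. Of the biogenesis regulators, Esrra and Ppara rose and Gabpb1 fell in both genotypes, Nrip1 fell in controls and Tfb2m rose in Aprt KO, while in each genotype 5 of 9 were not called. Tubule markers moved with age as well. Proximal tubule markers rose in 16 of 19 genes in each genotype, and the signals of the 19 summed to 43846 to 62294 in 7-day controls and 109720.0 to 121662 at 1 month, while proliferation markers fell in 11 of 11, their 13 genes summing to 9975 to 14023 and then 2960 to 4889. In whole-kidney RNA more cells of a type and more RNA per cell cannot be told apart, and the part of the tubule markers in the members' change was not tested.

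Between genotypes at 7 days no member was called (limma, background 3.22% in either direction and 0.679% lower), but most were lower in Aprt KO. At an unadjusted limma p under 0.05, 10 of the 68 passed, against 613 of all 5744 genes. The median difference was -0.13 on the log2 scale against -0.02 for all genes (also -0.13 without pair 4), and 64 of the 68 lay on the lower side. With the litter as a block, as the labels pair littermates, 17 members fell and none rose, 25% against the 3.86% of all genes that fell in that fit. With the litter as a random effect 9 fell (3.8% of all genes). The blocked count was 8 without pair 4 (2.68% of all genes), 3 without pair 1, 3 without pair 2, and 17, 9 and 7 without pairs 3, 5 and 6. Of these fits, only that without pair 4 has its share of all genes given. In 27 members (39.7%) the Aprt KO mouse was lower than its littermate in 6 of 6 pairs, against 8.04% of all genes, and none was higher in 6 of 6 (7.66%). The spread between litters was wider than the difference: the litter means of a member spanned a median of 0.54 on the log2 scale.

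Within each pair the median of the 68 members was negative. It was -0.24, -0.10, -0.06, -0.17, -0.10 and -0.13 in 7-day pairs 1 to 6, while the median of all genes in the same pairs lay between -0.03 and 0.01. Between 51 and 63 of the 68 members were lower in each 7-day pair, against 48.3% to 54.4% of all genes. At 1 month the medians were -0.12, -0.01 and -0.04, with 54, 36 and 42 members lower. Within complexes, complex I had a median genotype difference of -0.17 at 7 days, complex II -0.10, complex III -0.13, complex IV -0.05 and complex V -0.13. Without pair 4 these were -0.16, -0.13, -0.13, -0.05 and -0.13.

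**Figure D4:**
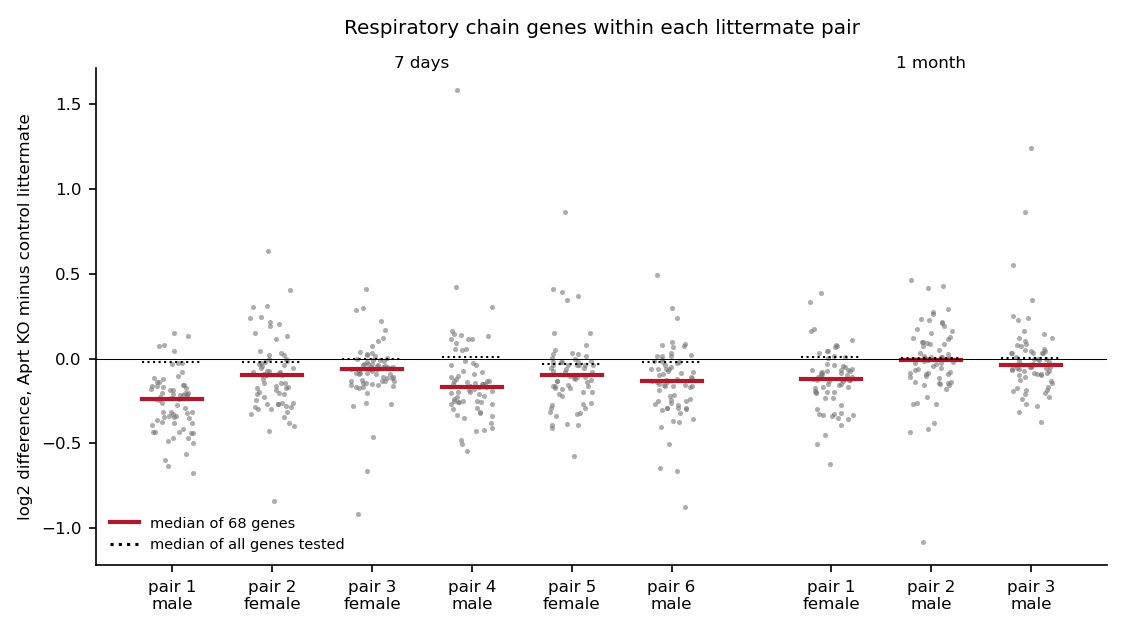
Difference of log2(signal + 29) between the Aprt KO mouse and its control littermate for each of the 68 genes (points) in the 9 pairs, with the sex of the pair; red bars are the members' medians and dotted bars those of all genes tested. The red bars lie below the dotted ones in each pair, by the most in pair 1 at 7 days and by the least in pair 2 at 1 month.

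Sdhb gave the clearest genotype difference at 7 days. Aprt KO read 3260.2 to 4995 (median 4695) against 4157 to 6149 (median 5639) in controls, and the Aprt KO mouse was lower in 6 of 6 pairs although the groups overlapped. The difference was -0.27, with a limma adjusted p of 0.391 without the litter and 0.00251 with the litter block, and it was called in 6 of 6 blocked fits that left out a pair. Ndufs1 was called in 6 of 6 such fits too. In Aprt KO it read 1758 to 2605 (median 2069) against 2278 to 2869 (median 2619), a difference of -0.30 (SE 0.11) with adjusted p of 0.241, and 0.0111 with the block. Ndufc1, a small membrane-arm subunit, read 2547 to 3149 (median 2677) against 3057 to 3495 (median 3362), a difference of -0.26 (SE 0.09) with the smallest unblocked adjusted p of the members, 0.14, and 0.0204 with the block. Ndufb9 differed by -0.29 (SE 0.11, limma adjusted p 0.224, and 0.0401 with the block, but 0.0812 with the block and without pair 4). The other members called with the block were Ndufa2, Ndufa8, Ndufa9, Ndufb10, Ndufb11, Sdhd, Uqcr11, Uqcrc2, Uqcrh, Cox5b, Cox7a2, Atp5c1 and Atp5k, with differences of -0.15 to -0.29. Sdhd and Uqcrh were called in 0 of 6 fits that left out a pair. In the blocked fit without pair 4, Sdhb, Ndufs1, Ndufc1, Ndufa9 and Uqcrc2 kept their call and the rest lost it. Cox7b, Ndufab1 and Ndufv2, not called with all pairs, made up the other calls of that fit.

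Other lists at 7 days were lower on balance too. Citric acid cycle genes had a median of -0.13 with 14 of 15 lower and 0 called (2 fell with the block), and import and ribosomal genes a median of -0.12 with 24 of 28 lower and none called with or without the block. Myeloid markers rose in 11 of 12 genes, and the signals of the 18 on the array summed to 3949 to 6488 in controls and 8369 to 12107 in Aprt KO. Proximal tubule markers summed to 33953 to 54317 in Aprt KO, against 43846 to 62294 in controls. Of these, 13 of 19 were lower, and Mep1b fell (6 fell with the block). Thick limb and distal tubule markers had a median of -0.36 with 7 of 8 lower, and Kcnj1 and Egf fell (5 fell with the block). Collecting duct markers had a median of -0.57 with 4 of 4 lower, and Slc4a1 and Hsd11b2 fell. Proliferation markers were lower in 11 of 11 with 0 called. The part of these lists in the members' difference was not tested.

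At 1 month no member was called (limma, background 0.313%), nor with the litter block (background 1.38%). At an unadjusted limma p under 0.05, 1 of the 68 passed, against 265 of all 5744 genes. The median was -0.06 against 0.00 for all genes. In 3 of 3 pairs, 15 members (22.1%) were lower, against 13.9% of all genes, and 1 was higher (16.1% of all genes). Cox6b2 was higher in Aprt KO in 3 of 3 pairs (0.46, SE 0.15, limma adjusted p 0.408, and 0.0283 with the litter as a random effect, the 1 call of that fit, where 1.78% of all genes were higher). Sdha was lower by 0.19 (SE 0.16) and Uqcr11 higher by 0.19 (SE 0.15), neither called. The interaction of genotype and age had a median of 0.09 over the members, and its smallest p-values belonged to Cox6b2 (0.49, SE 0.18, adjusted p 0.532), Uqcr11 (0.44, SE 0.18) and Ndufc1 (0.30, SE 0.15, adjusted p 0.963), all from limma. With the litter as a random effect Cox6b2 was its 1 call, where 1.32% of all genes were higher.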

How the data were processed

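Biotin-labelled cRNA of 18 kidneys was read on arrays. The authors deposited 1 table of linear intensity for each probe set, for which the submitters' processing notes name GCOS and MAS5; no version or scaling target was found in the labels. Signals were used as deposited and tested as log2(signal + 29), a scale that understates changes of dim genes. Single-symbol probe sets with a mean signal of at least 118.6 (the 40th percentile) were kept, the brightest for each gene. limma 3.58.1 in R 4.3.3 (lmFit, eBayes with trend) was fitted to all arrays with a term for each group and a sex term for each age, on 12 residual degrees of freedom. Calls are at a Benjamini-Hochberg adjusted p under 0.05 over 5744 genes. The labels name littermates; deviations of littermates correlated at 0.239 to 0.673 in the 9 pairs, so blocked values are given where they change a count or call. The number of arrays limits the precision; each array is 1 mouse. Figures used matplotlib 3.10.9.

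Members, lists and named genes were chosen with earlier results of these data known. Named are the 2 brightest genes of each complex, up to 5 largest called changes (or the 3 smallest p) for each comparison, tissue-restricted isoforms with their partners, and members whose probe sets disagree. Sdhd, Uqcrh, Atp5pb and other members given with a value in lists fall outside that rule. Alternatives changed the pseudocount, filter, normalization, probe set rule, sex term, eBayes setting, litter term, name prefix and arrays; litter blocks combined with other choices were added after seeing the data.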

Additional observations from a re-analysis of the deposited data

Results flagged for a closer look

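In the 54 groups of 6 arrays formed by 27 named genes, 13 had an array far from the other 5 by Dixon's test, where chance alone gives about 5 percent of groups; 11 of the 13 are arrays of 7-day pair 4, whose bright signals read low across the array. The pair 4 control was lowest for Atp5a1 (6132, others 10229 to 12518), Atp5md (5185, others 8024 to 9638), Cox6a1 (8476, others 11811 to 13414), Cox7a2 (6596, others 8349.7 to 9479), Sdhb (4157, others 5351 to 6149) and Uqcrq (5625, others 8539 to 9470.3). The pair 4 Aprt KO array was lowest for Atp5md (3868, others 7605 to 9625), Cox6a1 (7670.1, others 11072 to 13128), Cox8c (566, others 774 to 868), Sdhb (3260.2, others 4588 to 4995) and Uqcrq (5119, others 7945 to 9927). In the control of pair 3, Cox6a2 was highest at 133 (others 35.5 to 49.7) and Uqcrc1 lowest at 4758 (others 6407 to 7057).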

How the results depend on the processing

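The median log2 fold changes of the members kept their direction under every alternative run. Leaving out 1 array or pair, they ranged from -0.18 to -0.08 (genotype at 7 days), -0.13 to -0.00 (1 month), 0.01 to 0.14 (interaction), 0.27 to 0.47 (age in controls) and 0.40 to 0.55 (age in Aprt KO), and the calls from 0 to 0, 0 to 0, 0 to 0, 7 to 38 and 21 to 49. With age in controls, 20 members were called with quantile normalization, 21 without a sex term, 21 without 7-day pair 5, 16 without 1-month pair 1 (15 rose, 1 fell) and 17 without 1-month pair 3. With age in Aprt KO, 24 were called without 1-month pair 1, 26 without pair 3 (25 rose, 1 fell) and 17 without the 4 arrays with Aprt on the other side. Between genotypes at 7 days, the litter as a fixed block gave 17 calls and as a random block 9; the fixed block without pairs 1 to 6 gave 3, 3, 17, 8, 9 and 7, with quantile normalization 15, with each probe set tested alone 17 and with a pseudocount of 1 17. The random block gave 1 call at 1 month and 1 in the interaction, both Cox6b2. Age cannot be fitted with litter as a fixed block, since each litter has 1 age. The blocked fits combined with another choice were chosen after seeing the data. Counts in this section are given without the shares of all genes called in the same fits. The cause of the shifts was not tested.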
